A study of Mus musculus with 4 samples.

Results

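Dendritic cells of the airspace were the 76 cells, of 9925 in all, that the deposited cell-level annotation named dendritic. The annotation placed all 76 in 1 refined cluster of the same name. They came from 4 libraries of bronchoalveolar lavage, a rinse that collects loose cells of the air spaces. Each library pooled the lavage of 7 C57BL/6 mice, so there was 1 library per group and no replicate, and every interval below covers counting error only. HDM+APM mice inhaled APM (Afghanistan particulate matter, an airborne dust) at 5 mg/m3, 6 hours daily on 12 days, and later received 10 µg of house dust mite (HDM, an allergen) through the nose. HDM mice breathed filtered air and received the same HDM doses. APM mice breathed the dust and received saline in place of HDM. Control mice breathed filtered air and received saline. Nasal doses began 9 days after the last dust exposure, on days 22 and 29, and were repeated on days 36, 37 and 38 before harvest on day 39. Lavage cells were 60 to 80% viable, per the labels.

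Dendritic cells take up antigen in the airways and carry it to the draining lymph node, where they present it to T cells. On maturation they lose phagocytic features, gain the lymph node homing receptor CCR7 and the actin bundler fascin, and increase the costimulatory ligands that T cells read. Conventional dendritic cells fall into a cDC1 lineage, marked by Xcr1 and Clec9a, and a cDC2 lineage, marked by Cd209a, Irf4 and Mgl2.

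There were 10 dendritic cells in HDM+APM, 38 in HDM, 23 in APM and 5 in control. As shares of all cells these were 0.890% in HDM+APM (95% Clopper-Pearson interval 0.428 to 1.63), 3.82% in HDM (2.72 to 5.21), 0.591% in APM (0.375 to 0.886) and 0.128% in control (0.0414 to 0.298). Alveolar macrophages made up 13.8% of the HDM+APM library and 20.02% of the HDM library but 95.04% of the APM and 99.1% of the control library, and the order of the shares depended on them. Among cells other than alveolar macrophages, dendritic cells were 1.03% in HDM+APM, 4.78% in HDM, 11.9% in APM and 13.9% in control, with an interval of 4.67 to 29.5 in control. A share of recovered cells does not tell a change in dendritic cells from a change in the other cells. The dendritic cells held 46652 UMIs (unique molecular identifiers, one per captured transcript) in HDM+APM, 141410 in HDM, 80253 in APM and 19759 in control. Their median depth was 4517.5, 3784, 3465 and 4079 UMIs per cell in the same order of libraries. Across the 4 libraries 42 barcodes occurred more than once, and 1 dendritic cell carried such a barcode.

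Of the mature markers, Ccr7 was seen in all 76 cells, Ccl22 in 67, Ccl17 in 65 and Fscn1 in 51. Ccr7, the homing receptor for lymph node chemokines, stood at 2186 CPM (UMIs per 1000000 UMIs of the class) in HDM+APM, 2044 in HDM, 3189.9 in APM and 1468 in control. At an equal 1000 UMIs per cell it was found in 82.3% of HDM and 88.4% of APM dendritic cells, against 4.89 and 4.53% of T cells. Fscn1, which encodes fascin, was at 643 CPM in HDM+APM, 785 in HDM, 2517 in APM and 2075 in control. Its levels fell into 2 ranges, with both HDM-treated libraries below 1000 CPM by the upper ends of their intervals (918 and 945) and the other 2 libraries above. Ccl22 and Ccl17 encode the ligands of CCR4, a chemokine receptor of Th2 and regulatory T cells. Ccl22 was at 2958 CPM in HDM+APM, 2235 in HDM, 2766 in APM and 6478 in control. Ccl17 was at 8038 CPM in HDM+APM, 6598 in HDM, 5906 in APM and 11438 in control, so for both chemokines the 5 control cells gave the highest level. A single control cell held 77 of the 128 Ccl22 UMIs and 141 of the 226 Ccl17 UMIs there. Cst3, the protease inhibitor cystatin C, common to conventional dendritic cells, was at 13547, 16534, 20136 and 14980.5 CPM in HDM+APM, HDM, APM and control. In the mm10 annotation Ccl17 and Ccl22 both lie on chromosome 8, at 94810453 to 94812036 and 94745590 to 94751699, Ccr7 lies on chromosome 11 at 99144196 to 99155077, Fscn1 on chromosome 5 at 142960343 to 142973185 and Cst3 on chromosome 2 at 148871722 to 148875692. The 10 genes with the highest log2 level relative to all other cells, on log2(CPM + 50), were Ccl17, Ccl22, Ccr7, Rgs1, Fscn1, Marcks, Cst3, Serpinb6b, Gadd45b and Nr4a3. Of them 6 were on a dendritic cell list, namely Serpinb6b and the markers Ccl17, Ccl22, Ccr7, Fscn1 and Cst3. Rgs1, Marcks, Gadd45b and Nr4a3 were on no cell type list. The cell types were assigned from these same cells and the markers were chosen for this class, so the count is a description and tests nothing.

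**Figure D1:**
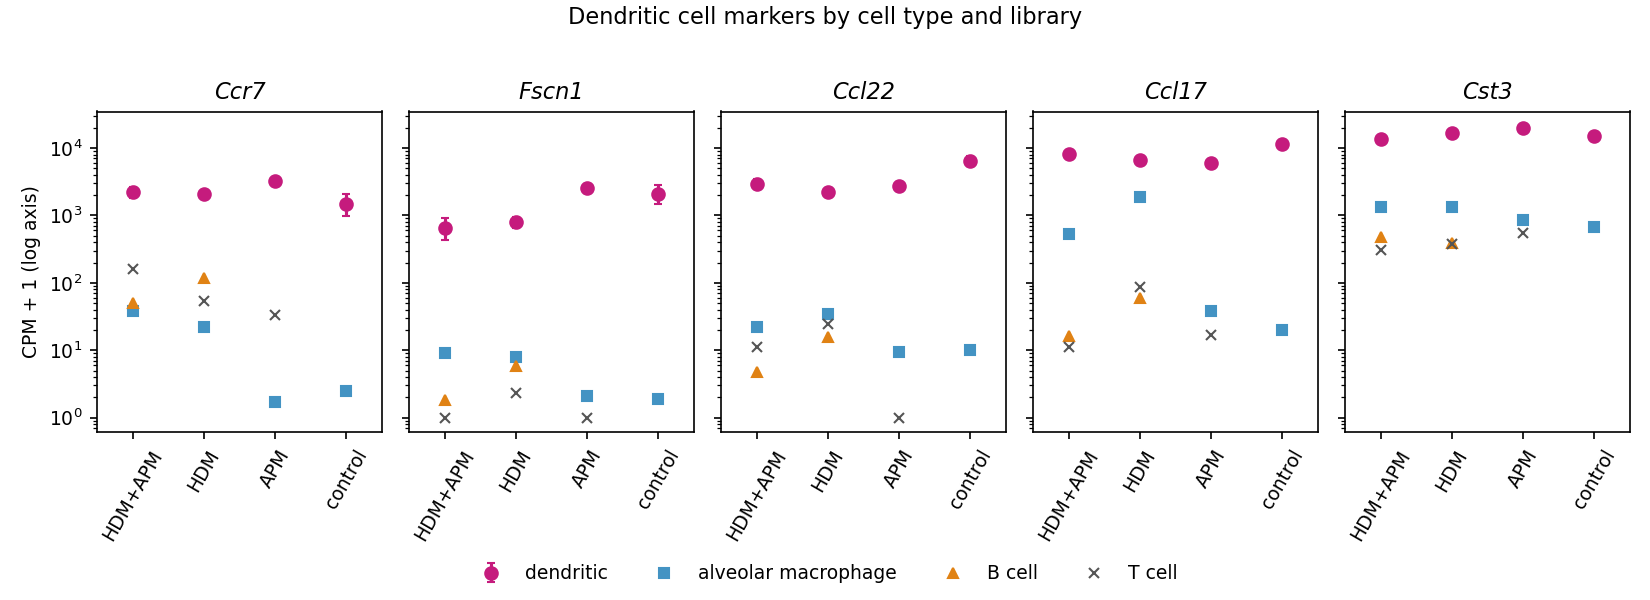
CPM + 1 on a log axis of the 5 markers in dendritic cells (circles, with 95% Poisson intervals) and, where a library held at least 50 cells of the type, in alveolar macrophages, B cells and T cells. Dendritic cells are the highest of the types drawn in every library for all 5 genes, and the smallest gap is that to macrophages for Ccl17 in the HDM library, 6598 against 1854 CPM.

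Lineage markers of the conventional subsets were mixed, with several at 0 and others seen in many cells. The cDC1 markers Xcr1, Clec9a, Cadm1 and Tlr3 had 0 UMIs in all 4 libraries, and so had Siglech, which marks plasmacytoid dendritic cells. Cd209a, a C-type lectin of cDC2, had 0 UMIs in HDM+APM, 2 in HDM, 1 in APM and 0 in control. Irf4, the transcription factor of cDC2, had 3, 14, 3 and 1 UMIs in HDM+APM, HDM, APM and control, and Mgl2, a cDC2 lectin, had 2, 20, 6 and 0. The 20 Mgl2 UMIs of the HDM library lay in 5 cells, with 11 in 1 of them. Tmem176b and Tmem176a, membrane proteins on the cDC2 list, had a UMI in 39 and 32 of the 76 cells, and Sirpa, an inhibitory receptor on that list, in 22. Irf8, a transcription factor on the cDC1 list, had one in 32 of 76 cells, and in 19 of 38 HDM and 9 of 23 APM cells. It was at 354 CPM in HDM and 411 in APM dendritic cells, against 75.3 and 15.98 CPM in T cells and 116 and 95.8 CPM in macrophages. Against macrophages, described below, 3 of 13 measured cDC1 list genes were 2-fold or more higher and 3 lower, and 4 and 3 of 13 on the cDC2 list. Over all genes tested 3.60% were higher and 4.77% lower. Batf3, a transcription factor needed by cDC1 and also used by mature cells, had a UMI in 7 of 10 HDM+APM, 26 of 38 HDM, 16 of 23 APM and 4 of 5 control cells. Flt3, the receptor for the growth factor of dendritic cells, had one in 3, 14, 11 and 0 of those cells, and T cells of the HDM and APM libraries had no Flt3 UMI. Zbtb46, a transcription factor of the conventional lineage, had 4, 7, 5 and 1 UMIs in HDM+APM, HDM, APM and control, too few to order the libraries. At this depth, 0 UMIs in a cell do not show that a gene is silent.

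As shares of UMIs, the mature list, 36 genes in the matrix, took 2.47% in HDM+APM, 2.36% in HDM, 2.98% in APM and 3.75% in control. Single cells ran between 1.07 and 6.62% in HDM and between 0.725 and 5.98% in APM. The ranges overlapped, but the median cell was at 2.14% in HDM and 3.23% in APM. Each HDM cell showed 13 to 27 of these genes and each APM cell 11 to 26. The list of genes shared by conventional dendritic cells, 18 genes led by Cst3, took 1.64% in HDM+APM, 1.96% in HDM, 2.45% in APM and 1.88% in control. The cDC1 list took 0.0969% in HDM and 0.122% in APM, and the cDC2 list 0.103% in HDM and 0.0860% in APM. Each of these lists has 16 genes, fewer than the mature list, which also holds the abundant markers Ccl17, Ccl22, Ccr7 and Fscn1. The shares therefore do not rank the lists by strength.

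Markers of B cells, T cells and neutrophils were low, but those of some other types were seen in most cells. The alveolar macrophage list had a UMI in 70 of the 76 cells, with a median share of 0.130% of UMIs. Scgb1a1, an airway epithelial gene, had one in 52 cells, and the lysozyme Lyz2 in 47. B cell list genes held 12 UMIs in HDM+APM, 4 in HDM, 0 in APM and 0 in control, and Cd3e, a T cell receptor subunit, 2 in HDM and 0 in the other libraries. The neutrophil list held 11, 67, 36 and 2 UMIs, 46 of the 67 in HDM from Mxd1, which other cells also use. Only 14 of the 76 cells had no UMI of the T cell, B cell or neutrophil lists; Il7r, a receptor that mature dendritic cells also carry, gave 26 of the 57 T cell list UMIs in HDM. Red blood cell genes summed to 1591 CPM in dendritic cells against 2622.5 CPM in T cells of the HDM library, and to 3389 CPM against 9172 CPM in the APM library. Whether these transcripts came from free RNA, which can enter any captured cell of a library, was not tested. With 5% of UMIs taken off as free RNA in the proportions of the library, 92 genes were 2-fold or more higher and 104 lower in HDM than in APM, against 86 and 98 without this step. The interferon list described below then kept its count of 5 of 10 higher genes, with a median log2 ratio of 1.06. A larger share of free RNA was not tested.

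Against alveolar macrophages of all libraries, 402 of 11174 genes with at least 20 UMIs over both classes were 2-fold or more higher in dendritic cells (3.60%) and 533 were 2-fold or more lower (4.77%), on log2(CPM + 50). The cell types were assigned from these same cells and genes, so the values describe the classes and test nothing. Of 34 measured genes on the mature list 31 were higher and none lower, with a median log2 ratio of 2.58 against -0.08 over all genes. Fscn1 stood at 1333 CPM in dendritic cells against 1.31 in macrophages, and Ccr7 at 2347 against 2.69. Serpinb6b, an inhibitor of serine proteases, was at 955 CPM against 1.42. Ccl5, a chemokine for T cells and monocytes, was at 3221 CPM against 14.9. T cells hold it too (4804 CPM in HDM, 3835 in APM). Of the 7933 macrophages pooled here 3697 came from APM and 3882 from control. In the HDM library Ccl5 had a UMI in 49.2% of macrophages and 60.5% of dendritic cells, or 19.8 and 38.7% at equal depth. In the APM library it had one in 2.65% of macrophages and 82.6% of dendritic cells. Over all libraries Rgs1, a brake on chemokine receptor signalling, was at 2009.9 CPM against 20.7 in macrophages. Marcks, a membrane and actin regulator, was at 1514 against 13.8, and Gadd45b, a stress-induced gene, at 1222 against 18.9. On the NF-kB pathway list 14 of 17 genes were higher and none lower, among them Relb, the subunit of the alternative pathway, at 476 against 21.9 CPM. H2-Eb1, an MHC class II chain, was at 5047 CPM against 202 and Cd74, the class II chaperone, at 18301 against 1059.5.

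Genes typical of alveolar macrophages were lower in dendritic cells. Of the 17 genes on the macrophage list 16 were lower and none higher (median log2 ratio -2.39), where 4.77% of all genes were lower and 3.60% higher. Lpl, a lipase of lipid-loaded macrophages, was at 59.0 CPM in dendritic cells against 1739.8 in macrophages, and Cybb, the catalytic subunit of the phagocyte oxidase, at 45.1 against 1055. The metal binders Mt2 and Mt1 were at 90.3 and 555 CPM against 3242 and 11748, the haem oxygenase Hmox1 at 90.3 against 1759 and the lysozyme Lyz2 at 687 against 12748. On the list of Nrf2 and metal response genes 13 of 18 were lower and 1 higher. Of 14 measured pattern recognition receptors 5 were lower and none higher, Mrc1 and the lectins Clec4n, Clec4d and Clec4e and Tlr2.

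The difference between dendritic cells and macrophages depended on the library for the genes that HDM macrophages also carried. For Ccl17 the log2 ratio of dendritic cells over macrophages was 3.80 in HDM+APM, 1.80 in HDM, 6.09 in APM and 7.38 in control. Macrophages of those libraries held Ccl17 at 531, 1854, 37.3 and 19.0 CPM. For H2-Ab1, an MHC class II chain, the ratio was 0.30, 0.96, 3.44 and 3.43 in the same order. Ccr7 and Fscn1 varied less, with log2 ratios of 4.68 and 3.58 in HDM+APM, 4.89 and 3.87 in HDM, 6.00 and 5.65 in APM, and 4.88 and 5.38 in control. Within the HDM library alone, all 29 measured genes on the mature list were higher in dendritic cells, against 6.10% of all genes tested there. Within the APM library 25 of 29 were higher, against 3.66% of all genes. These counts too describe the classes and test nothing.

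Against B cells, another antigen-presenting class, the comparison was made in the HDM library, with 38 dendritic cells and 128 B cells. There 384 of 2020 genes were 2-fold or more higher in dendritic cells (19.0%) and 203 were 2-fold or more lower (10.0%). Mature list genes were higher for 28 of 29 and lower for none, and costimulation and checkpoint ligands for 6 of 8. Ccl17 was at 6598 CPM in dendritic cells against 57.9 in B cells, Ccl22 at 2235 against 14.5 and Cst3 at 16534 against 395. Fabp5, a fatty acid binding protein, was at 3769 CPM against 57.9 and Cdkn1a, the cell cycle inhibitor p21, at 912 against 4.82. Tbc1d4, a regulator of vesicle traffic, had 130 UMIs in dendritic cells and 0 in B cells, at least 63.6-fold higher taking 3 UMIs over the B cells as the limit. The survival genes Bcl2a1a, Bcl2a1b and Bcl2a1d were at 898, 2638 and 1973 CPM against 9.64, 106 and 48.2, but they are near-identical copies whose reads may be split between them. MHC class II genes ran in both directions, with 2 of 13 higher and 3 lower. H2-Ab1 was at 3189 CPM in dendritic cells against 2435 in B cells, while H2-Ob and H2-Oa, subunits of the peptide-loading inhibitor, had log2 ratios of -2.61 and -1.68.

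Of the B cell list, all 9 measured genes were lower in dendritic cells, against 10.0% of all genes. Cd79a, a chain of the B cell receptor, was at 7.07 CPM against 1384, Ebf1, a B lineage factor, had 0 UMIs against 198 (at least 45.0-fold lower) and Cd79b 0 against 183 (at least 41.6-fold lower). Plac8 and Ly6d were at 14.1 CPM each against 2093 and 1991 and Apoe at 28.3 against 1287. The B cell class also held 26 Siglech UMIs in 6 of its 128 cells, 12 of them in 1 cell. Of 6 measured genes on the plasmacytoid list 5 were lower in dendritic cells than in that class.

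**Figure D2:**
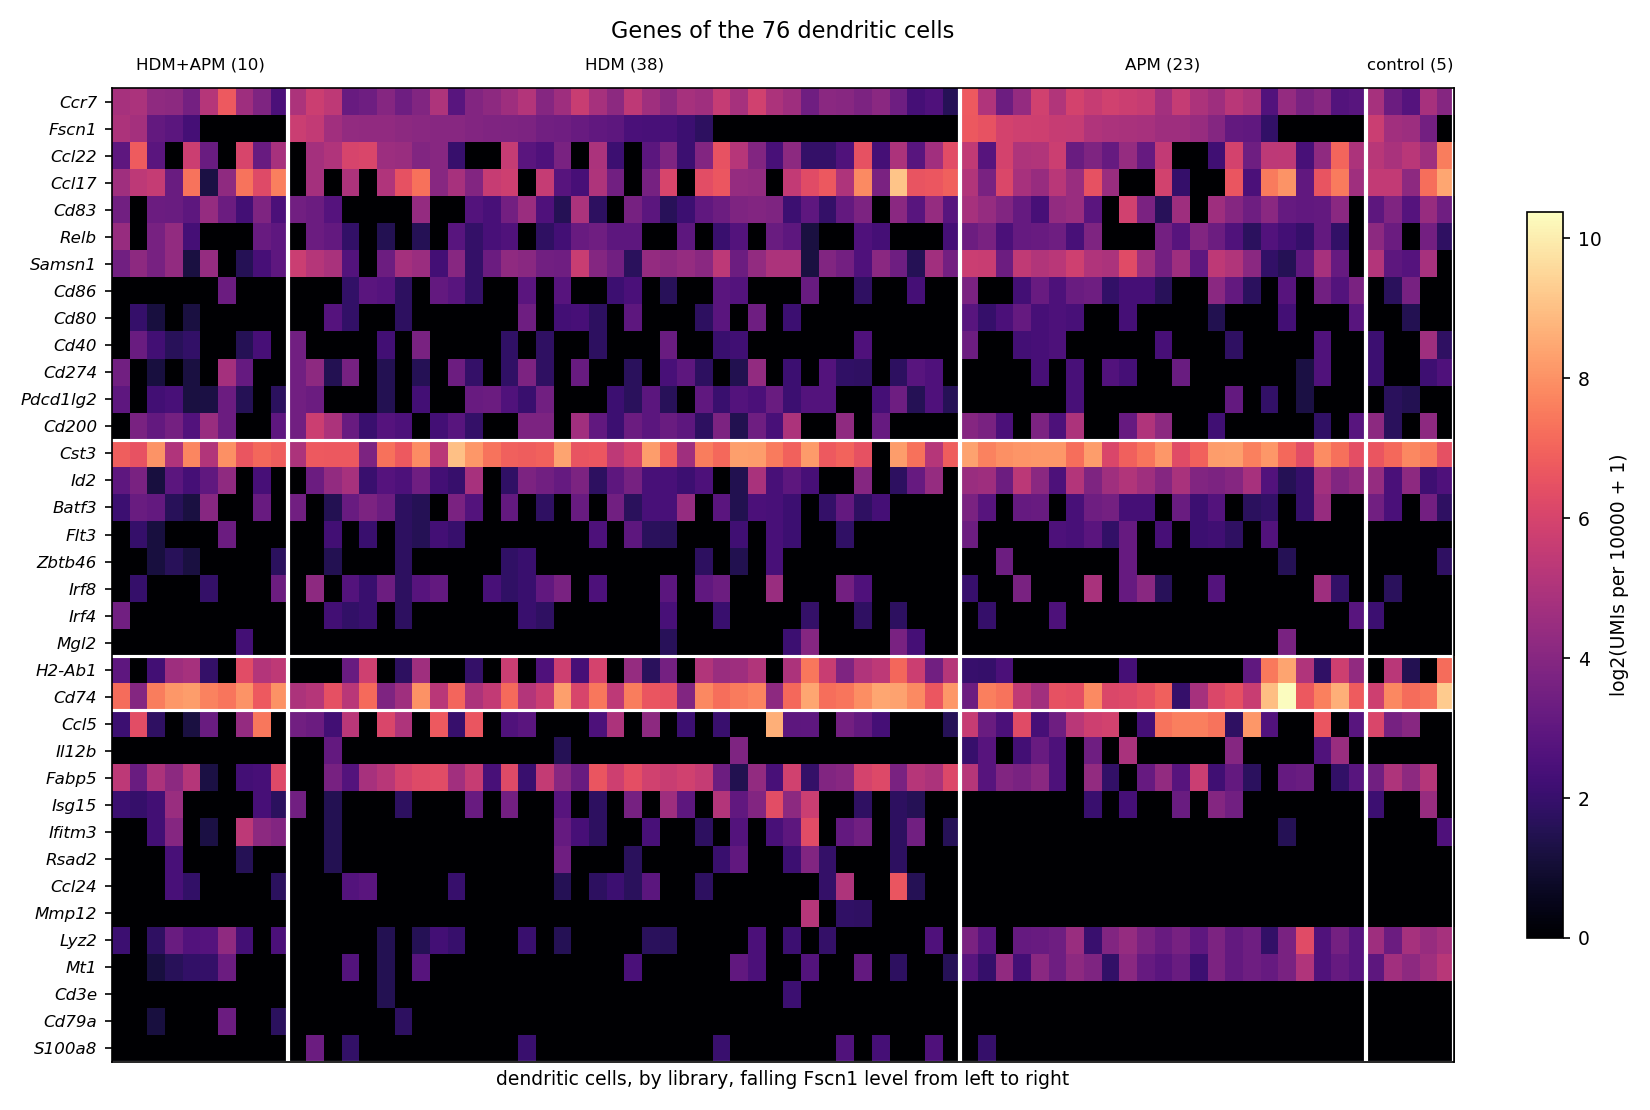
Each column is 1 of the 76 dendritic cells, grouped by library with the number of cells in brackets and sorted by falling Fscn1 share, and each row a gene, coloured by log2(UMIs per 10000 + 1). Ccr7 is present in all columns, and Fscn1 is absent from 14 of 38 HDM and 5 of 23 APM cells. H2-Ab1 has a UMI in 23 of the 25 cells without Fscn1 and in 26 of the 51 with it, at a lower level in the latter.

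The cells differed among themselves in Fscn1, MHC class II and chemokines. Fscn1 had a UMI in 51 cells and none in 25, whose median depths were 3476 and 3929 UMIs. H2-Ab1 was at 1413 CPM in cells with Fscn1 against 6625 CPM in cells without, and Cd74 at 12657 against 29051 CPM. Ccl17 was at 4277 CPM with Fscn1 against 12101 without, while Ccr7 ran the other way, at 2631 against 1805 CPM. Id2, a transcriptional regulator needed for dendritic cell development, was at 1169.9 against 595 CPM. The same order for H2-Ab1 was found within the HDM library, at 1608 against 5769 CPM, and within the APM library, at 1221 against 10248 CPM. A single APM cell held 172 of the 218 UMIs behind the 10248, and without it the level was 2841 CPM in the other 4 APM cells without Fscn1 and 5155 CPM in the 24 such cells of all libraries. Across the 76 cells the rank correlation (Spearman) of the Fscn1 and H2-Ab1 levels was -0.60, -0.50 within the 38 HDM cells and -0.47 within the 23 APM cells. These cells share libraries and depths, so the correlations are descriptions.

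The chemokines Ccl17 and Ccl5 showed no clear relation across cells. At 20 or more UMIs, Ccl17 was found in 27 cells, Ccl5 in 15, both in 2 and neither in 36, where the product of the shares gives 5.33 cells with both. In the HDM library 13 cells reached that level for Ccl17, 4 for Ccl5 and 0 for both (1.37 from the product), and in the APM library 7, 8 and 2 (2.43 from the product), so the counts lie close to those values within each library. The Spearman correlation of the levels was -0.24 over the 76 cells. Ccl17 followed Ccl22 (0.53) and Cd74 (0.52) and ran against Ccr7 (-0.48), and Ccl5 ran against Cd74 (-0.51).

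**Figure D3:**
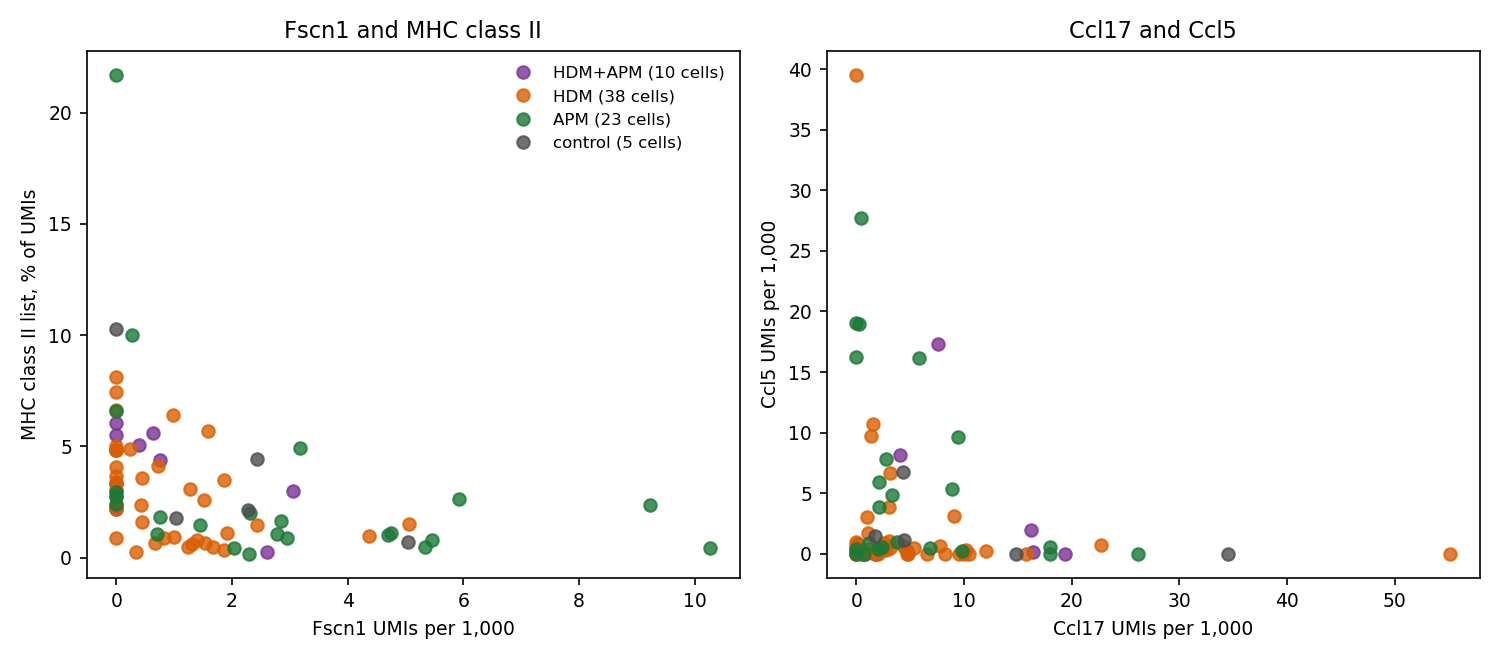
Left, the share of UMIs from MHC class II genes (percent) against Fscn1 UMIs per 1,000 in each dendritic cell, coloured by library. Right, Ccl5 against Ccl17, both in UMIs per 1,000. The highest class II shares lie in cells with little or no Fscn1, and 1 APM cell without Fscn1 stands apart at 21.7%. Cells rich in Fscn1 are not all low: the APM cell with 32 Fscn1 UMIs is at 2.37%, against a median of 2.36% over the 76 cells. On the right 2 cells hold 20 or more UMIs of both chemokines.

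Between the 2 libraries with over 20 dendritic cells, 86 of 1416 genes with at least 20 UMIs over both were 2-fold or more higher in HDM than in APM (6.07%) and 98 were 2-fold or more lower (6.92%). Scaling by TMM factors instead, which rest on most genes having equal levels, moved the split to 136 higher and 54 lower and the median of all genes to 0.13, against -0.04, on the log2 scale. The groups differ in both agents, so the 2 libraries do not isolate either. Single cells weighed heavily: without the cell that held most UMIs of a gene, 62 of the 86 and 50 of the 98 were still past 2-fold.

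The mature list differed little as a whole, with a median log2 ratio HDM over APM of -0.19. Of 30 measured genes 2 were higher and 3 lower on this list, against 6.07 and 6.92% of all genes. Its members ran in both directions. Fscn1 had 111 UMIs in HDM, 2 in the median cell and 13 in the highest, against 202 in APM, 8 in the median cell and 34 in the highest. The APM level was 3.21-fold the HDM level (interval 2.53 to 4.08), and Fscn1 was found in 63.2% of HDM and 78.3% of APM cells, or 43.2 and 68.9% at an equal 1000 UMIs per cell. T cells of these libraries had 1 Fscn1 UMI in HDM and 0 in APM. Serpinb6b was at 700.1 CPM in HDM and 1695 in APM. Il12b, the p40 chain of interleukins 12 and 23, had 12 UMIs in 3 of 38 HDM cells and 33 UMIs in 10 of 23 APM cells, 84.9 against 411 CPM. It had 0 UMIs in HDM+APM and in control cells, and T cells of the HDM and APM libraries had none. Cd86, a ligand of CD28, was at 248 CPM in HDM and 511 in APM, Cd83, a maturation antigen that stabilises CD86, at 714 and 1321, and Samsn1, an adaptor protein, at 1443 and 2505.

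Of 7 measured costimulation and checkpoint ligands 1 was 2-fold or more higher in HDM, Pdcd1lg2, and none lower, against 6.07 and 6.92% of all genes. Pdcd1lg2, which encodes PD-L2, had 48 UMIs in 26 of 38 HDM cells and 6 UMIs in 4 of 23 APM cells. That is 339 against 74.8 CPM, 4.54-fold (interval 1.94 to 12.98), and 30.1 against 6.18% of cells at an equal 1000 UMIs. It was at 257 CPM in HDM+APM and 101 in control, where 2 UMIs were seen. Cd274, which encodes PD-L1, the other ligand of the inhibitory receptor PD-1, was at 304 CPM in HDM and 137 in APM, 2.22-fold (interval 1.12 to 4.77), with UMIs in 25 of 38 and 7 of 23 cells. On log2(CPM + 50) its ratio was 0.92, under 2-fold, or 1.10 with TMM factors. Macrophages carried more of both in HDM than in APM, Pdcd1lg2 at 91.4 against 9.21 CPM and Cd274 at 77.6 against 50.4. Cd80, the other CD28 ligand, was at 149 and 174 CPM and Cd40, the receptor for T cell help, at 149 and 137 CPM, with intervals of the ratio that included 1. Cd200, an inhibitory ligand for myeloid cells, was at 672 and 536 CPM, with an interval that also included 1.

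**Figure D4:**
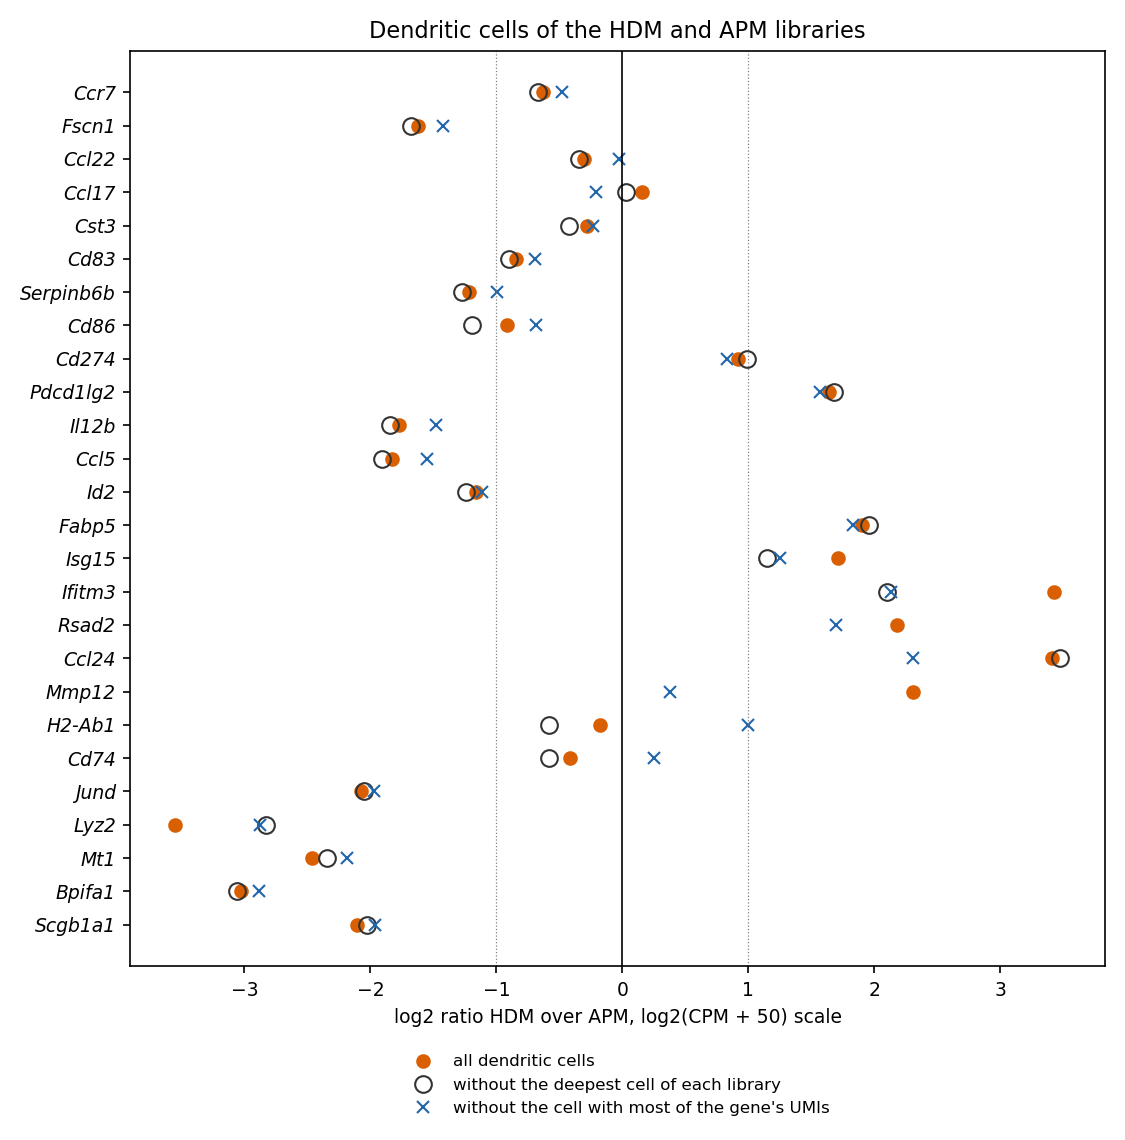
Log2 ratio HDM over APM, on log2(CPM + 50), in dendritic cells for 26 genes. Filled circles use all cells, open circles leave out the deepest cell of each library (not drawn where under 20 UMIs then remained) and crosses leave out the cell with most UMIs of the gene in the higher library. Fscn1, Il12b, Ccl5 and Jund lie below -1 and Pdcd1lg2, Fabp5 and Isg15 above 1 in all 3, whereas Mmp12 rests on 1 cell.

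Fabp5 was higher in HDM across most cells. It had 533 UMIs in HDM, 12.5 in the median cell and 40 in the highest, against 78 in APM, 2 in the median cell and 15 in the highest. Its level was 3769 CPM in HDM against 972 in APM, 3.88-fold (interval 3.05 to 4.98), with 2336 CPM in HDM+APM and 1822 in control. In T cells it was at 92.4 and 159.8 CPM and in macrophages at 2068 and 1728 CPM in HDM and APM. Nr4a3, an immediate early nuclear receptor also found in migratory dendritic cells, was at 976 CPM in HDM and 486 in APM (log2 ratio 0.94, or 1.15 with TMM factors). Wdr89, a WD repeat gene, was at 1279.97 CPM in HDM against 299 in APM, but T cells differed alike, at 2057 against 655 CPM. Pold1, a DNA polymerase subunit, had 27 UMIs in 15 HDM cells and 1 UMI in APM.

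Other genes high in HDM rested on few cells. Ccl24, a chemokine for eosinophils made by macrophages, had 68 UMIs in 13 HDM cells and 0 in APM, at least 12.9-fold higher taking 3 UMIs over the APM cells as the limit, with 41 of them in 1 cell. Macrophages of the HDM library held Ccl24 at 1485 CPM and T cells at 26.4 CPM. Of the 28 Mmp12 UMIs, 26 lay in 1 cell, as did 21 of 27 for Mfge8, 22 of 23 for Ms4a4c and 18 of 21 for Tmem80, all 4 with 0 UMIs in APM. Without the cell richest in each gene the log2 ratios were 0.38 for Mmp12, 0.91 for Mfge8, 0.20 for Ms4a4c and 0.52 for Tmem80.

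Genes that answer to interferon were higher in HDM as a list. Of 10 measured members 5 were 2-fold or more higher and none lower, where 6.07% of all genes were higher and 6.92% lower. The median log2 ratio was 1.08 against -0.04 over all genes. The list of 20 genes summed to 3044 CPM in HDM+APM, 3486 in HDM, 1146 in APM and 1113 in control dendritic cells, the 2 HDM-treated libraries above the other 2. T cells differed in the same direction, at 2122 CPM in HDM and 623 in APM. Isg15, a ubiquitin-like modifier, was at 364 CPM in HDM+APM, 806 in HDM, 212 in APM and 354 in control. Its HDM level was 3.81-fold the APM level (interval 2.28 to 6.76), and it was at 252 and 32.0 CPM in T cells of HDM and APM. Ifitm3, a membrane protein that restricts virus entry, was at 900.3 CPM in HDM+APM, 622 in HDM, 12.5 in APM and 101 in control, from 42, 88, 1 and 2 UMIs. In HDM+APM 1 of the 10 cells held 21 of the 42 UMIs, and without it the level was 506 CPM. Rsad2, the antiviral enzyme viperin, had 25 UMIs in 9 HDM cells and 0 in APM, at least 4.73-fold higher, with 3 in HDM+APM and 0 in control.

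A single HDM cell weighed on this list. The deepest HDM cell, at 7293 UMIs, showed 19 of the 20 interferon genes and gave them 2.40% of its UMIs, against 0.237% over the other HDM dendritic cells. It held 58 of the 88 Ifitm3 UMIs, 37 of the 114 Isg15 UMIs and 10 of the 25 Rsad2 UMIs, and 26 of the 28 Mmp12 UMIs. It also held 11 UMIs of Mgl2 and 126 of H2-Ab1, none of Fscn1 and 7 of Ccr7. Without the deepest cell of each library the list median was 0.96, with 3 of 7 measured genes higher and none lower, and the log2 ratio of Ifitm3 was 2.10 against 3.43 with all cells and that of Isg15 1.15 against 1.71.

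The promoters of these 3 genes are shown because each holds a match to the core of the interferon-stimulated response element, the sequence read by interferon-activated factors. They are printed 5′ to 3′ on the strand of the gene from RefSeq (GRCm38.p6), 250 bases before to 50 after the start, with matches to a pair of GAAA separated by any 2 bases, on either strand, in capitals and overlapping matches run together. The Isg15 window is chr4:156200769-156201068 (minus strand, 3 matches), the Ifitm3 window chr7:141010695-141010994 (minus strand, 2 matches) and the Rsad2 window chr12:26456403-26456702 (minus strand, 1 match).
Isg15: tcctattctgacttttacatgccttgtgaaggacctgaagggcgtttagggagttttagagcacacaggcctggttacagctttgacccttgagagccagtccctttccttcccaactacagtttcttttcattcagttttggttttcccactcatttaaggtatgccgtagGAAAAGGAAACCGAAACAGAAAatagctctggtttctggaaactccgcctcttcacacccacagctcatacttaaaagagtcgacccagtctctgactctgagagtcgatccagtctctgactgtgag
Ifitm3: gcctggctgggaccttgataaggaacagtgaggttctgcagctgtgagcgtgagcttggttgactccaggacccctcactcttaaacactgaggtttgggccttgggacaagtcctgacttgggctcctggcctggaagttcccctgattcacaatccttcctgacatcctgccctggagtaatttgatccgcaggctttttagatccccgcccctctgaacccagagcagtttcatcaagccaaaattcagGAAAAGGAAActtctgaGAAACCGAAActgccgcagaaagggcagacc
Rsad2: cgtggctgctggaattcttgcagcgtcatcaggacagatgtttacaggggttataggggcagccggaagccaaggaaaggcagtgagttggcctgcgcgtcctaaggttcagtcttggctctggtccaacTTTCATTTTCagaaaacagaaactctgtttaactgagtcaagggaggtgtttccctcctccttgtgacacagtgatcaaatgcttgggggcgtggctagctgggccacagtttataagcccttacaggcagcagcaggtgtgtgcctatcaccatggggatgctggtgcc

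The motif was found in 11 of the 16 interferon list members with a window and in 1131 of all 32851 windows (3.44%). A match describes the letters of the window and is no evidence that a factor bound there in these cells.

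Genes of MHC class II presentation, a list that also holds Cd86, differed little, with a median log2 ratio of 0.12. Of 9 measured genes 1 was higher and none lower, where 6.07% of all genes were higher and 6.92% lower. A large part of the APM level came from 1 cell. That cell gave 1103 of its 5081 UMIs (21.7%) to class II genes, where the next highest APM cell gave 10.0%. It had 133 UMIs of Ccl17, 10 of Ccr7, 6 of Mgl2 and none of Fscn1. Cd74 had 2160 UMIs in HDM and 1636 in APM, 672 of them in that cell, and H2-Ab1 451 and 290, 172 of them there. Without it the log2 ratio of Cd74 was 0.25 against -0.42 with it, that of H2-Ab1 was 1.00 against -0.18 (0.05 with TMM factors and all cells) and the list median 0.68. These values without the APM cell keep the deepest HDM cell, which held 126 of the 451 HDM H2-Ab1 UMIs and gave 8.12% of its UMIs to class II genes. They therefore do not show that class II was 2-fold higher across HDM cells. In the median cell, class II genes took 2.66% of UMIs in HDM and 1.66% in APM. MHC class I genes had a median of 0.31, with 3 of 12 higher, the peptide transporter genes Tap1 and Tap2 (1.21 and 1.18) and H2-T23 (1.28), and none lower.

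Ccl5 was lower in HDM than in APM dendritic cells. It had 264 UMIs in HDM, 1 in the median cell and 92 in the highest, against 542 in APM, 3 in the median cell and 119 in the highest. The APM level, 6754 CPM against 1867 in HDM, was 3.62-fold the HDM level (interval 3.12 to 4.21), and HDM+APM and control stood at 1908 and 1670.1 CPM. Without the cell richest in Ccl5 the log2 ratio HDM over APM was -1.55 against -1.83 with all cells. For Ccl17 the interval of the ratio HDM over APM included 1 (1.12, 0.999 to 1.25), and its log2 ratio was 0.16 with all cells and -0.21 without the cell richest in it. Ccl22 and Cst3 had log2 ratios of -0.30 and -0.28, or -0.08 and -0.06 with TMM factors, and Ccr7 had -0.63, or -0.41. Id2 was at 728 CPM in HDM against 1695 in APM (log2 ratio -1.16, or -0.95 and so under 2-fold with TMM factors), while T cells held it at 609 and 1118.5 CPM.

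The genes lowest in HDM against APM were largely ones known from other cell types. Lyz2 had 12 UMIs in HDM and 123 in APM, 54 of them in 1 cell, and T cells differed alike, at 140.0 against 2013 CPM. Mt1 was at 156 against 1084 CPM, with T cells at 84.5 against 1518. The airway epithelial secretory genes Scgb1a1 and Bpifa1 were at 205 and 14.1 CPM in HDM against 1047 and 474 in APM, with T cells at 261 and 33.0 against 1470.0 and 687. Fth1, the ferritin heavy chain, was at 1711 against 6841 CPM, with T cells at 1801 against 5257 and 12703 CPM in control dendritic cells. Slpi, a secreted protease inhibitor, had 1 UMI in HDM and 19 in APM, and T cells held it at 15.8 against 112 CPM. Ccl6, a macrophage chemokine, had 29 and 100 UMIs, 69 of those in APM in 1 cell, and Cebpb, a myeloid transcription factor, 8 and 28, with 20 in 1 cell. The deepest APM cell, at 6895 UMIs, held those Lyz2, Ccl6 and Cebpb UMIs. It showed 14 of the 17 alveolar macrophage genes, which took 1.42% of its UMIs against 0.158% over the other APM dendritic cells, and it had the lowest share of the mature list, 0.725%. Whether it was 1 cell or 2 was not tested.

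Jund differed without such a difference in T cells, and for Rrad the APM T cells held too few UMIs to compare. Jund, an AP-1 subunit, was at 91.9 CPM in HDM against 548 in APM dendritic cells, with T cells at 301 against 352. Rrad, a small GTPase, had 5 UMIs in HDM and 25 in APM in 9 cells. T cells held it at 19.8 against 15.98 CPM, where the APM value rests on too few UMIs to show or exclude a difference. The list counts that follow stand beside 6.07% of all genes tested higher and 6.92% lower in HDM. On the list of heat shock and dissociation genes 3 of 10 were 2-fold or more lower in HDM and none higher (median -0.70), or 2 of 10 with TMM factors. On the Nrf2 and metal list 3 of 7 were lower and none higher (median -0.79). Actin and migration genes had a median of -0.02, with 1 of 21 higher and 3 lower, Fscn1, Vim and Anxa2 (median 0.19 and 2 lower with TMM factors). On the list of genes answering to interleukin 4 or 13, 3 of 10 were higher, among them Cish, a cytokine signalling inhibitor (log2 ratio 1.42), and 1 was lower (median 0.33), or none with TMM factors.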

How the data were processed

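Single-cell RNA was measured in 4 pooled lavage libraries with the 10x 3' v2 kit, per the labels' protocols. Cell Ranger 2.2.0, Seurat 2.3.4 and the mm10 build are listed, per the submitters' processing notes. The authors deposited UMI counts, not normalized, for 13838 genes in 9925 cells, with cell types in a metadata table. The sources used here give neither how types were assigned nor how doublets were handled. No doublet caller was run. UMIs were summed per class and library and scaled to CPM from the deposited counts. Ratios carry exact conditional binomial intervals, CPM exact Poisson and shares Clopper-Pearson intervals, all at 95%, and the ratio code was tested on simulated data. Log2 ratios use CPM + 50. With 1 library per group no test and no p-value was possible. A gene counted as higher or lower from 2-fold. Gene lists, markers and members were chosen with earlier results of these data known. Genes named are the 5 markers, the 12 highest and 6 lowest against macrophages and B cells (at least 50 UMIs), the 10 highest and 10 lowest of HDM over APM (at least 20), and up to 8 members of each list by UMIs. Other list members named in the text (Xcr1, Clec9a, Cadm1, Tlr3, Siglech, Flt3, Zbtb46, H2-Ob, H2-Oa, H2-T23, Tap1, Tap2, Vim and Anxa2) were chosen after their values were seen. For equal depth, each cell's detection at 1000 UMIs was computed exactly, leaving out 1 HDM and 0 APM dendritic cells. Alternatives were scaling, pseudocount, filters, free RNA and single cells. Immunoglobulin constant genes were not analysed here. Tools were Python 3.11.15, scipy 1.17.1, matplotlib 3.10.9 and edgeR 4.0.16 (TMM only, on the summed counts).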

Additional observations from a re-analysis of the deposited data

How the results depend on the processing

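No paired analysis was possible because each group is 1 pooled library with no test. The share in HDM was 5.27% among cells of at least 1000 UMIs, and the shares in APM and control were 11.9 and 13.9% among cells other than alveolar macrophages. For HDM over APM, genes 2-fold or more higher and lower were 134 and 154 with a pseudocount of 10 CPM, 186 and 212 with no minimum of UMIs, 136 and 54 with TMM factors, and 62 and 50 without the cell holding most UMIs of each gene, an alternative chosen after seeing the data. Leaving out the deepest dendritic cell of both libraries gave 90 and 90. Cd74 turned to 0.25 without the APM cell richest in MHC class II genes, also chosen after seeing the data and with the deepest HDM cell kept. With 10 CPM as the pseudocount, 829 genes were higher and 1902 lower in dendritic cells than in macrophages, and 309 were lower than in B cells. In cells with no UMI of T cell, B cell or neutrophil lists, the shared list took 1.68% in HDM and 2.04% in APM, the cDC1 list 0.0788% in HDM, the cDC2 list 0.0835% in HDM and 0.132% in APM, and the mature list 2.78% in APM, and the shared list took 1.86% in HDM with each cell brought to 1000 UMIs. The cause of these moves was not tested. Of 892 values of single genes and lists under these alternatives, 763 stayed within their counting interval or within 0.3 on the log2 scale, 127 moved beyond it and 2 reversed. Lists of under 10 measured genes and the 5 control cells allow no finer comparison at this depth.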
